A study of Mus musculus with 3 samples.

Results

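The genes for periostin (Postn), fibronectin (Fn1), thrombospondin 1 (Thbs1), thrombospondin 3 (Thbs3) and CCN family member 5 (Ccn5) were followed across the cells of mouse mitral valves. They were chosen by symbol from the expression matrix, with their levels known from earlier work on it, and are 5 of its 3264 genes with a value in every cell, which lie on part of the genome. All values below therefore describe these cells and carry no test. The 3 samples listed are mitral valves of B6.129-Fbn1tm2Rmz/J mice, labelled mgR/mgR: both Fbn1 alleles are hypomorphic, which lowers fibrillin-1 throughout the animal, and the mice were 12 weeks old. The study also used wild-type (WT) mice and mgR mice treated with rapamycin, and profiled sorted cells as well as nuclei with 10x Genomics droplet libraries. The matrix pools libraries, and its barcodes name no mouse, genotype, treatment or library, so it was treated as 1 sample, genotypes were not compared, and cells stands here for barcodes of cells or nuclei.

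Matricellular proteins are secreted into the extracellular matrix, where they act mainly as signals to cells rather than as building material. Periostin belongs to this class, is made by valve and other connective tissue cells, and binds collagen and integrins. Thrombospondins bind matrix, receptors and proteases, and thrombospondin 1 can release TGF-β from its latent complex. Ccn5, formerly Wisp2, is a CCN protein that lacks the C-terminal domain of the other family members. Fibronectin is strictly a structural glycoprotein of the matrix, assembled into fibrils through integrins, and is usually grouped with the others because it carries cell attachment and growth factor signals.

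The matrix held 16383 cells with a median of 5349 UMIs (unique molecular identifiers, 1 per captured transcript) and a range of 503 to 23127 UMIs. A level is a gene's summed UMIs in a group divided by the group's total UMIs and multiplied by 10000, followed in parentheses by its 95% exact Poisson interval. Shares of cells were taken after each cell was thinned to 2000 UMIs, with 95% exact binomial intervals. These intervals reflect counting error alone, and the spread between mice is not in them. Those of levels and ratios treat each UMI as separate, so they also leave out the spread between cells. Barcodes are listed in alphabetical order in 2 passes, first for 14222 cells (median 5154 UMIs) and then for 2161 (median 6918 UMIs). What these 2 runs stand for is not stated, and 11 barcodes occur in both. Values by run are given for part of the comparisons, and a value given without them can differ between runs.

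Fibroblasts were cells with UMIs of at least 2 of Prrx1, Col3a1 and Dpt and none of Egfl7, and numbered 3149 (19.2% of cells). Endothelial cells had Egfl7, a gene of endothelium, and fewer than 2 of the 3 fibroblast genes, and numbered 8966 (54.7%). Ptprc cells had UMIs of Ptprc, the leukocyte antigen CD45, and neither of these marker patterns, and numbered 470 (2.87%). The 421 cells with both kinds of marker were kept apart as possible doublets, and 3377 cells met no rule. Spi1, which no rule used and which encodes a myeloid transcription factor, was at 2.47 UMIs per 10000 in Ptprc cells, 0.0268 in fibroblasts and 0.0286 in endothelial cells. The 6 leukocyte genes in the matrix, of 10 listed, summed to 37.8 in Ptprc cells, 0.398 in fibroblasts and 0.438 in endothelial cells, and none of them was at 0 in any of the 3 groups. These include Ptprc, which defines the group and made up 15.9 of its sum, and Mrc1, by which it is split below, with 14.9. Cd34, which fibroblasts also carry, was at 1.94 in endothelial cells, 1.18 in fibroblasts and 0.292 in Ptprc cells. The 5 cardiomyocyte genes in the matrix, of 8 listed, summed to 1.52 in endothelial cells, 0.114 in fibroblasts and 0.317 in Ptprc cells, mostly through Ttn and Xirp2, and their part in the results was not tested. The 2 mural genes of 6 listed summed to at most 0.106, the 1 melanocyte gene of 5 to at most 0.263 and the 3 mitotic genes of 5 to at most 0.597 in these groups.

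Postn, Thbs1, Thbs3 and Ccn5 had their highest level in fibroblasts among the 3 groups, and Fn1 in endothelial cells. The level in fibroblasts was at least 2 times that in endothelial cells for 3 of the 5 genes (Thbs1, Thbs3 and Ccn5), and for 16.5% of the 2282 genes with at least 200 UMIs. The reverse held for 1 of the 5 (Fn1), and for 14.5% of all genes. The genes were picked with these levels in view, so the counts say nothing beyond the choice. The plot of levels by group and barcode run shows the 5 patterns.

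**Figure D1:**
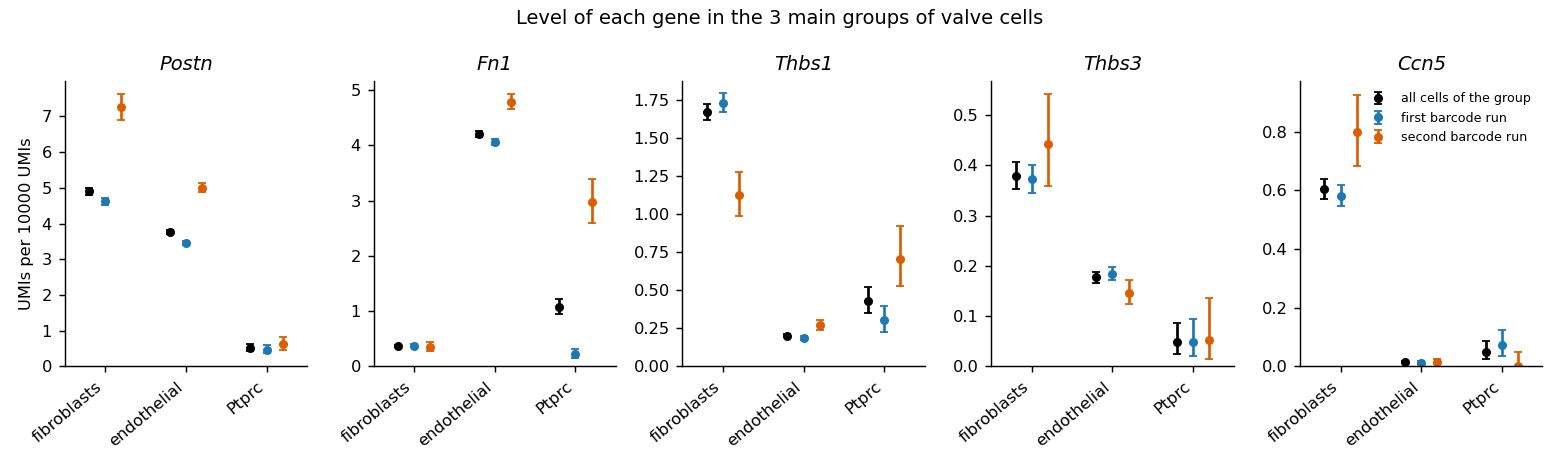
Level of each gene in UMIs per 10000 UMIs (vertical axes, each with its own scale) in fibroblasts, endothelial cells and Ptprc cells, over all cells of a group (black), in the first barcode run (blue) and in the second (orange), with 95% exact Poisson intervals as bars. Fn1 stands highest in endothelial cells at 4.20 UMIs per 10000 and the other genes stand highest in fibroblasts, while Fn1 in Ptprc cells reads 0.226 in the first run and 2.97 in the second.

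Postn (ENSMUSG00000027750.16) lies on the plus strand at chr3:54361109-54391037 in GRCm38, with no other annotated gene over it. It is the member with the most UMIs, 36183 over all cells, and its highest levels were in fibroblasts and in one set of endothelial cells. The 150 bases before its start in RefSeq (GRCm38.p6, plus strand, chr3:54360957-54361106) are shown because they hold a TATA box, and the capitals mark it.
Postn promoter: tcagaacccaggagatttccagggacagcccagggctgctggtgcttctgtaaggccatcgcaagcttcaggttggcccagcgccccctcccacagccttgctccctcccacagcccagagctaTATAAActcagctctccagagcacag
The motif TATAAA stands at bases -26 to -21 from the start, and 7.57% of 32851 RefSeq promoters of this length hold it on either strand. The window has 60.0% G and C and 2 CpG pairs. RefSeq lists 2 starts for Postn, and this is the one 2 bases from the GENCODE start. No binding or methylation data were used with it, so the match is a description of the letters.

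Postn was at 4.90 UMIs per 10000 in fibroblasts (4.80 to 4.99), at 3.76 in endothelial cells (3.71 to 3.81) and at 0.519 in Ptprc cells (0.432 to 0.618). The level in fibroblasts was 1.30 times that in endothelial cells (95% interval 1.27 to 1.33) and 9.44 times that in Ptprc cells (7.92 to 11.3). Both runs had this order: fibroblasts were at 4.63 and 7.26 and endothelial cells at 3.46 and 5.0 in the first and second run. At 2000 UMIs a cell, Postn was found in 39.5% of fibroblasts (37.8 to 41.3), 25.0% of endothelial cells (24.1 to 25.9) and 6.73% of Ptprc cells (4.52 to 9.58), where the median depths before thinning were 6063, 5365.5 and 4851 UMIs. Without thinning the shares were 56.0%, 35.9% and 13.4%. Free RNA leaves UMIs in cells that do not make a gene, and the share in Ptprc cells, which are not known for periostin, is given for comparison. The rule for Ptprc cells removes those with Egfl7 or several fibroblast genes, so it does not measure what mixed droplets add to the other groups.

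Although the level was higher in fibroblasts, endothelial cells held 55.9% of all Postn UMIs and fibroblasts 28.3%, since endothelial cells were more numerous. Within endothelial cells Postn was uneven. Cells were sorted by UMIs of 3 pairs of genes: Prox1 or Kif26b, Tmem163 or Kcnh1, and Selp or Fmo2. Prox1 is a transcription factor of lymphatic and valve endothelium, Selp is P-selectin, and Kcnh1 is a potassium channel. In the 2715 cells with only the first pair, Postn was at 8.53 (8.39 to 8.68), the highest of the 11 groups that share no cells, and these 16.6% of cells held 37.3% of its UMIs. It was at 1.33 (1.24 to 1.41) in the 1342 cells with only Selp or Fmo2 and at 0.512 (0.449 to 0.581) in the 726 cells with only Tmem163 or Kcnh1, which was also the level of Ptprc cells. The level with Prox1 or Kif26b only was thus 16.7 times (14.7 to 19.0) that with Tmem163 or Kcnh1 only, and 1.74 times (1.70 to 1.79) that of fibroblasts.

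Markers of other cell types also differed between these sets. The 3 fibroblast genes summed to 1.69 with Selp or Fmo2 only, 0.303 with Prox1 or Kif26b only and 0.217 with Tmem163 or Kcnh1 only. The 5 cardiomyocyte genes summed to 1.21, 1.08 and 2.92 in the same order, and their part in the Postn and Fn1 levels was not tested.

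The order of the 3 single endothelial sets was the same in both runs. With Prox1 or Kif26b only, Postn was at 8.56 in the first run and 8.45 in the second, with Selp or Fmo2 only at 1.31 and 1.39, and with Tmem163 or Kcnh1 only at 0.505 and 0.618. Postn therefore differed between runs over all endothelial cells more than within each of these sets. The cells with UMIs of several pairs were at 1.88 in the first run and 3.73 in the second. Of the 5 genes, Postn alone was at least 2 times as high with Prox1 or Kif26b only as in each of the other 2 single sets, and 2.67% of all genes were.

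Finer splits of the first set gave further steps in Postn. Cells with both Prox1 and Kif26b were at 12.7 (12.5 to 13.0), cells with Kif26b but no Prox1 at 6.43 (6.07 to 6.80) and cells with Prox1 but no Kif26b at 4.74 (4.58 to 4.90). Where Prox1 or Kif26b came together with Selp or Fmo2, Postn was at 3.21 (3.10 to 3.33), and with Tmem163 or Kcnh1 at 1.97 (1.83 to 2.11). Cells with UMIs of all 3 pairs were at 1.15 (1.01 to 1.30), and those with none at 1.74 (1.65 to 1.83). A cell with more UMIs is more likely to show several pairs: the median depth was 7904 UMIs with all 3 pairs and 4656 with none. The bars for the 8 combinations of marker pairs show these steps beside those of Fn1.

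**Figure D2:**
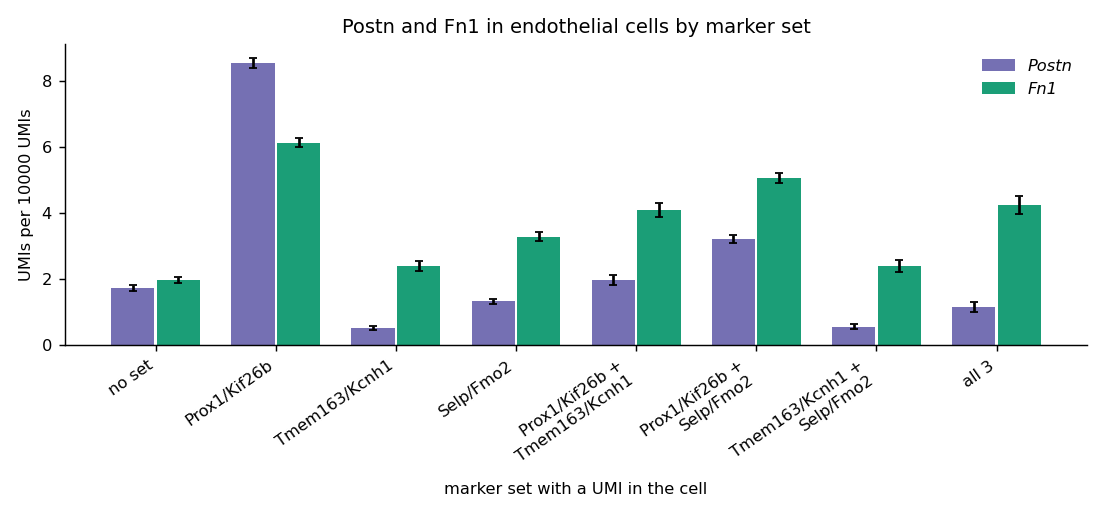
Levels of Postn (purple) and Fn1 (green) in UMIs per 10000 UMIs (vertical axis) in endothelial cells split by which of 3 marker pairs had a UMI in the cell (horizontal axis), with 95% exact Poisson intervals. Postn stands at 8.53 with Prox1 or Kif26b only and at 0.512 with Tmem163 or Kcnh1 only, and Fn1 at 6.1 and 2.40 in the same cells.

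Postn was also unequal among fibroblasts, which were split by Scn7a, a sodium channel gene, and Prg4, the gene for lubricin. It was at 7.06 (6.80 to 7.32) in the 696 fibroblasts with neither gene, 5.27 (4.97 to 5.59) in the 277 with both, 4.67 (4.55 to 4.80) in the 1662 with Prg4 only and 2.95 (2.78 to 3.14) in the 514 with Scn7a only. No neighbours in this order had overlapping intervals, which leave out the spread between cells. By shares at 2000 UMIs the order was 50.4%, 30.7%, 41.9% and 22.4%, so the fibroblasts with both genes had fewer cells with Postn than those with Prg4 only, and more UMIs in a few: the 10% of their Postn cells with the most UMIs held 54.4% of them. In the first run the level was 6.76 with neither gene, 4.94 with both, 4.30 with Prg4 only and 3.05 with Scn7a only. In the second it was 9.13 with neither, 9.08 with Prg4 only, 8.64 with both (7.37 to 10.1, 22 cells) and 2.45 with Scn7a only, so fibroblasts with both genes and those with Prg4 only changed places, with overlapping intervals there. Fibroblasts without Scn7a had 1.39 times (1.32 to 1.45) the Postn of those with it, 1.30 times in the first run and 2.29 times in the second. By Prg4 the direction was not stable, since fibroblasts with it had 0.930 times the level of those without (0.894 to 0.969) over all cells, 0.871 times in the first run and 1.63 times in the second. The subset with neither gene had the lowest median depth, 5202 UMIs, and the lowest sum of the fibroblast genes, 11.2. Its sums were the highest of the 4 subsets for leukocyte (0.687), melanocyte (0.340) and mural genes (0.196). Its endothelial sum was the lowest, at 0.964. The part of these differences in the Postn levels was not tested.

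Single cells carried Postn very unevenly. Of fibroblasts, 14.3% had 1 UMI and 8.45% had 10 or more, and the highest had 112. Of the endothelial cells with Prox1 or Kif26b only, 15.0% had 10 or more and the highest had 174. Among Ptprc cells 1 cell had 10 or more. The stacked shares of cells by UMIs per cell show that high counts were common for Postn and Fn1 and absent for Thbs3.

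**Figure D3:**
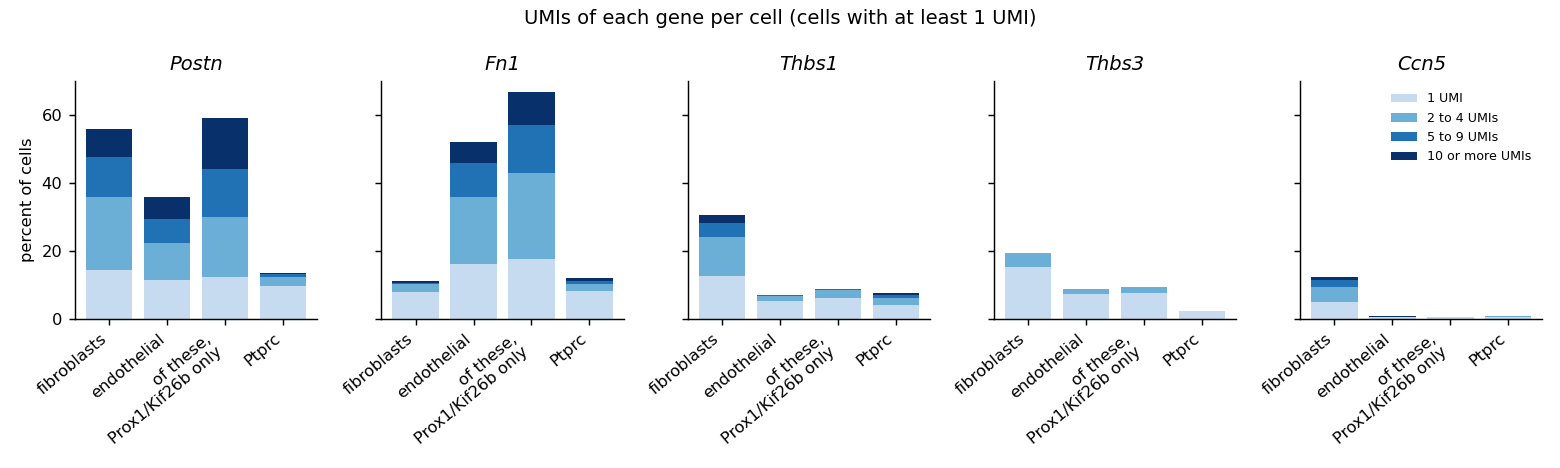
Percent of cells (vertical axis) with 1, 2 to 4, 5 to 9 and 10 or more UMIs of each gene, without thinning, in fibroblasts, endothelial cells, the endothelial cells with Prox1 or Kif26b only, and Ptprc cells. Postn reaches 10 or more UMIs in 8.45% of fibroblasts, Fn1 in 6.36% of endothelial cells, and no cell has 10 UMIs of Thbs3.

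Fn1 (ENSMUSG00000026193.15) lies on the minus strand at chr1:71585520-71653200 in GRCm38, and its first bases are overlapped on the plus strand by Apol7d, which had 82 UMIs against 26293 of Fn1. Fn1 was the one gene of the 5 that was higher in endothelial cells. It was at 4.20 UMIs per 10000 there (4.15 to 4.26), at 1.07 in Ptprc cells (0.948 to 1.21) and at 0.368 in fibroblasts (0.343 to 0.395). Endothelial cells thus had 11.4 times (10.6 to 12.3) the level of fibroblasts, by 11 times in the first run and 13.7 times in the second, and held 86.0% of all Fn1 UMIs. At 2000 UMIs, Fn1 was found in 35.4% of endothelial cells (34.3 to 36.4), 6.25% of Ptprc cells (4.12 to 9.02) and 4.61% of fibroblasts (3.90 to 5.42). Without thinning these shares were 52.2%, 11.9% and 11.1%.

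In the endothelial sets Fn1 had a flatter profile than Postn. It was at 6.1 (6.01 to 6.25) with Prox1 or Kif26b only, 3.28 (3.15 to 3.42) with Selp or Fmo2 only, 2.40 (2.26 to 2.54) with Tmem163 or Kcnh1 only and 1.97 (1.87 to 2.07) with no pair. Cells with both Prox1 and Kif26b were the highest at 8.56 (8.34 to 8.78). The lowest endothelial set was still above fibroblasts, which were at 0.171 to 0.435 in their 4 subsets. With Prox1 or Kif26b only the level was 2.56 times (2.40 to 2.72) that with Tmem163 or Kcnh1 only, and each set differed little between runs, with 6.16 and 6.03, 3.33 and 3.08, and 2.40 and 2.29 in the order of the first 3 sets above. The gap between the Selp or Fmo2 and the Tmem163 or Kcnh1 sets was 1.37 times (1.28 to 1.47), and its log2 value turned to -0.081 when cells were assigned after thinning.

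Fn1 and Postn were found together in endothelial cells more often than the product of their shares. At 2000 UMIs, 13.6% of 8403 endothelial cells had both (12.9 to 14.4), against a product of 8.84%. Fn1 was in 54.5% of the cells with Postn (52.3 to 56.6) and 29.0% of those without (27.9 to 30.1). Both genes were highest in the same set, so the excess was also taken within it: with Prox1 or Kif26b only, Fn1 was in 62.5% of Postn cells (59.7 to 65.3) and 35.2% of the others (32.7 to 37.9). Both genes also differed between the finer splits of this set by Prox1 and Kif26b, and the excess was not taken within those. In the set with Selp or Fmo2 only the shares were 39.3% (31.7 to 47.2) and 30.1% (27.4 to 33.0), whose intervals overlap. With Tmem163 or Kcnh1 only they were 32.7% (20.7 to 46.7) and 20.8% (17.7 to 24.2), and these overlap too. The Postn cells numbered 163 with Selp or Fmo2 only and 55 with Tmem163 or Kcnh1 only. The share with both genes was 1.30 times the product with Prox1 or Kif26b only. It was 1.25 times with Selp or Fmo2 only and 1.51 times with Tmem163 or Kcnh1 only. In fibroblasts, Fn1 was in 4.80% of Postn cells and 4.49% of the others, with overlapping intervals.

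The Fn1 level of Ptprc cells came largely from few cells of one barcode run. It was at 0.226 (0.160 to 0.311) in the first run, below the 0.370 of fibroblasts there, and at 2.97 (2.59 to 3.39) in the second, above the 0.350 of fibroblasts. The order of Ptprc cells and fibroblasts therefore turned between runs. The 4 cells with the most Fn1 had 93, 34, 30 and 14 UMIs, all in the second run, and held 65.5% of the 261 UMIs. Without them the level over all Ptprc cells was 0.376 (0.302 to 0.462). In the second run alone it was then 0.728 (0.544 to 0.954), still above the 0.350 of fibroblasts there. Ptprc cells without Mrc1, the macrophage mannose receptor, were at 2.87 (2.5 to 3.29) and those with it at 0.300 (0.224 to 0.395). By run the 2 levels were 0.411 and 0.156 in the first and 7.1 and 0.664 in the second, and 4 cells held 86.4% of the Fn1 UMIs of the Ptprc cells without Mrc1 in the second run.

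The 8 Ptprc cells with at least 5 Fn1 UMIs, all in the second run, were picked after their Fn1 was seen, and their other genes are given as a description. They had Ptprc at 13.1 UMIs per 10000, against 16.0 in the other 462 Ptprc cells, and Spi1 at 4.58 against 2.41. Mrc1 was at 0.473 in them, 15.3 in all the others and 10.6 in the 114 others of the second run. Thbs1 was at 5.37 (3.72 to 7.50), in 5 of the 8 cells, against 0.296 (0.231 to 0.374) in all the others and 0.276 (0.166 to 0.432) in those of the second run. Il1b, the cytokine interleukin 1β, was at 29.2 against 1.44 in all the others and 3.30 in those of the second run. Slc7a11, a cystine transporter, was at 10.9 against 0.118 and 0.0436, and both genes were also named after their values were seen. Prox1, Kif26b and Postn were found in 1 of the 8 cells each, with 3, 10 and 12 UMIs. Over the 8 cells Kif26b was at 1.58 (0.757 to 2.90), against 0.144 in all the others. Postn was at 1.89 (0.979 to 3.31) against 0.482, and Prox1 at 0.473 (0.0976 to 1.38) against 0.178. The part of mixed droplets in these levels was not tested. Whether the 8 cells come from 1 mouse or library cannot be told.

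Thbs1 (ENSMUSG00000040152.8) lies on the plus strand at chr2:118111876-118127133 in GRCm38 and is overlapped on the other strand by Gm29233, which the matrix does not list. It was a gene of fibroblasts here, and of those with Prg4 above all. It was at 1.67 UMIs per 10000 in fibroblasts (1.62 to 1.73), 0.428 in Ptprc cells (0.350 to 0.519) and 0.202 in endothelial cells (0.190 to 0.214). The level in fibroblasts was 8.28 times (7.73 to 8.87) that in endothelial cells, 9.34 times in the first run and 4.18 times in the second. Fibroblasts held 53.4% of its UMIs. At 2000 UMIs, Thbs1 was found in 17.1% of fibroblasts (15.8 to 18.5), 3.85% of Ptprc cells (2.21 to 6.17) and 3.25% of endothelial cells (2.88 to 3.65), and the last 2 intervals overlap.

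Among fibroblasts the order of Thbs1 was 2.46 (2.37 to 2.55) with Prg4 only, 1.24 (1.09 to 1.40) with both genes, 0.936 (0.843 to 1.04) with neither and 0.237 (0.189 to 0.294) with Scn7a only. The level with Prg4 only was 10.4 times (8.35 to 13.0) that with Scn7a only, 11.2 times in the first run and 6.37 times in the second. Fibroblasts with Scn7a only were near the endothelial level of 0.202. Thbs1 was the 1 gene of the 5 at least 2 times as high with Prg4 as without, by 3.74 times (3.39 to 4.13), and 2.94% of all genes were. It was also the 1 gene at least 2 times as high without Scn7a as with it, by 3.38 times (3.02 to 3.79), against 5.96% of all genes. By shares at 2000 UMIs it was found in 24.7% of fibroblasts with Prg4 only (22.6 to 26.9) and in 5.36% of those with Scn7a only (3.56 to 7.70).

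The endothelial sets were all below the fibroblast level of Thbs1. It was at 0.239 (0.216 to 0.265) with Prox1 or Kif26b only, 0.178 (0.148 to 0.212) with Selp or Fmo2 only and 0.125 (0.0947 to 0.161) with Tmem163 or Kcnh1 only. The first and the last of these did not overlap, and the middle one overlapped the last. Ptprc cells without Mrc1 were at 0.943 (0.734 to 1.19) and those with it at 0.206 (0.144 to 0.287), which was 4.57 times (3.0 to 7.08). Here too a few cells weighed heavily, since 4 cells held 46.2% of the 104 UMIs of Thbs1 in Ptprc cells. The level without them was 0.234 (0.177 to 0.304). By run, Thbs1 in Ptprc cells was at 0.304 (0.226 to 0.400) in the first and 0.706 (0.529 to 0.923) in the second.

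Thbs3 (ENSMUSG00000028047.11) lies on the plus strand at chr3:89215180-89226837 in GRCm38. The 150 bases before its start in RefSeq (GRCm38.p6, plus strand, chr3:89215030-89215179) are shown beside those of Postn because the pair of promoters differ in their motifs, and the capitals mark a CCAAT box and a GC box, both read on the minus strand.
Thbs3 promoter: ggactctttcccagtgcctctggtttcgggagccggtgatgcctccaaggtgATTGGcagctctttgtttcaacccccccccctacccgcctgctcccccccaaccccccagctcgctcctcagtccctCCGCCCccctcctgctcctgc
The motif CCAAT stands at bases -98 to -94 and is held on either strand by 24.5% of the 32851 promoters, and GGGCGG stands at -21 to -16 and is held by 28.6%. TATAAA was not among the letters of this window, nor CCAAT or GGGCGG among those of the Postn window. The Thbs3 window has 66.7% G and C and 5 CpG pairs, against 60.0% and 2 for Postn. Fn1, Thbs1 and Ccn5 had no entry in the promoter table.

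Thbs3 was found at 1 or a few UMIs a cell in each group. It was at 0.379 UMIs per 10000 in fibroblasts (0.353 to 0.407), 0.177 in endothelial cells (0.166 to 0.189) and 0.0494 in Ptprc cells (0.0255 to 0.0863), where it had 12 UMIs. The level in fibroblasts was 2.14 times (1.95 to 2.35) that in endothelial cells, 2.01 times in the first run and 3.03 times in the second. At 2000 UMIs it was found in 7.1% of fibroblasts (6.21 to 8.07), 3.39% of endothelial cells (3.01 to 3.80) and 0.962% of Ptprc cells (0.263 to 2.44). No cell had more than 6 UMIs of Thbs3. The 10% of Thbs3-carrying fibroblasts with the most UMIs held 21.6% of its UMIs there, while for Postn, Fn1 and Thbs1 the same measure gave 44.2%, 47.9% and 43.7%.

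No split of the fibroblasts moved Thbs3 by a ratio of 2. It was at 0.416 (0.379 to 0.455) with Prg4 only, 0.403 (0.322 to 0.498) with both genes, 0.362 (0.302 to 0.430) with Scn7a only and 0.279 (0.230 to 0.336) with neither. Each of these intervals overlaps its neighbour's in the order, and those of the first and the last do not overlap. With and without Scn7a the ratio was 0.992, and its interval of 0.844 to 1.16 bounds the difference that these UMIs could miss. Fibroblasts with Prg4 had 1.30 times the level of those without (1.12 to 1.52). In the 3 single endothelial sets Thbs3 was between 0.152 and 0.191, with overlapping intervals.

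The gene Mtx1, for a protein of the outer mitochondrial membrane, covers Thbs3 on the opposite strand (chr3:89209081-89227088), through 2 of its 18 annotated transcripts, 1 of them protein-coding. Whether the counting used strand is not stated, so some UMIs of either gene could belong to the other. Mtx1 did not share the pattern of Thbs3: it was at 0.194 (0.176 to 0.214) in fibroblasts, 0.228 (0.215 to 0.241) in endothelial cells and 0.259 (0.199 to 0.332) in Ptprc cells.

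Ccn5 (ENSMUSG00000027656.7) lies on the plus strand at chr2:163820861-163833146 in GRCm38, with no other annotated gene over it. Of the 5 genes it had the largest ratio between fibroblasts and endothelial cells, and among fibroblasts it was highest in the subset where Thbs1 was lowest. Fibroblasts held 67.1% of its UMIs. Ccn5 was at 0.604 UMIs per 10000 in fibroblasts (0.571 to 0.638), 0.0494 in Ptprc cells (0.0255 to 0.0863) and 0.0136 in endothelial cells (0.0106 to 0.0171). The level in fibroblasts was 44.5 times (35.1 to 57.1) that in endothelial cells, 45.0 times in the first run and 48.8 times in the second. The 12 UMIs in Ptprc cells came from 4 cells, all in the first run. At 2000 UMIs it was found in 6.31% of fibroblasts (5.48 to 7.23), 0.721% of Ptprc cells (0.149 to 2.09) and 0.262% of endothelial cells (0.164 to 0.396).

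Ccn5 was at 1.70 (1.57 to 1.84) in fibroblasts with Scn7a only, 0.858 (0.738 to 0.993) with both genes, 0.315 (0.262 to 0.375) with neither and 0.314 (0.282 to 0.348) with Prg4 only. The last 2 subsets did not differ beyond their intervals. The level with Scn7a only was 5.42 times (4.74 to 6.20) that with Prg4 only, 5.65 times in the first run and 3.81 times in the second. Ccn5 was the 1 gene of the 5 at least 2 times as high with Scn7a as without, by 4.41 times (3.93 to 4.96), and 3.94% of all genes were. It was likewise the 1 gene at least 2 times as high without Prg4 as with it, by 2.42 times (2.16 to 2.71), against 3.46% of all genes. At 2000 UMIs, 18.7% of fibroblasts with Scn7a only had Ccn5 (15.3 to 22.3) and 3.47% of those with Prg4 only (2.63 to 4.48).

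Ccn5 and Postn were found together in fibroblasts less often than the product of their shares. At 2000 UMIs, 37 of 3057 fibroblasts had both, 1.21% (0.854 to 1.66) against a product of 2.49%. Ccn5 was in 3.06% of the fibroblasts with Postn (2.17 to 4.20) and 8.44% of those without (7.21 to 9.80). Fibroblasts with Scn7a only had the highest Ccn5 and the lowest Postn of the 4 subsets, and the pair was not counted within subsets. Thbs1 was in 19.4% of fibroblasts with Postn (17.2 to 21.7) and 15.6% of those without (14.0 to 17.4), intervals that overlap slightly. Thbs1 and Ccn5 were highest in different subsets. They were found together in 1.31% of fibroblasts (0.936 to 1.78), an interval that holds the product of 1.08%. The grid of levels over the 11 groups sets the 5 genes side by side.

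**Figure D4:**
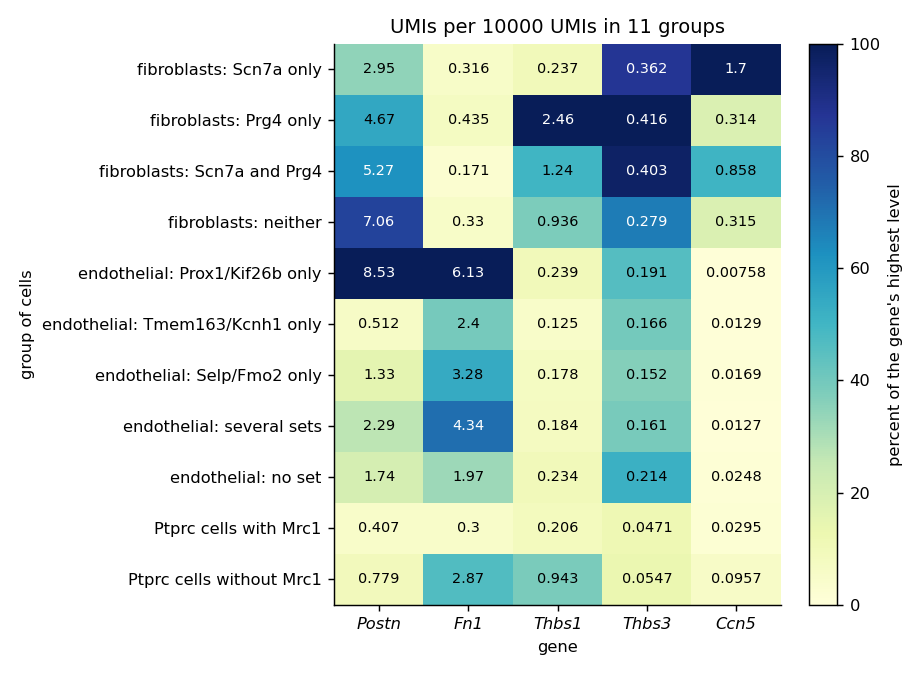
Levels in UMIs per 10000 UMIs (printed in each cell) of the 5 genes (columns) in 11 groups that share no cells (lines of the grid), shaded as percent of the highest level of the gene in the column. Thbs1 is highest with Prg4 only (2.46), Ccn5 with Scn7a only (1.70), and Postn and Fn1 in endothelial cells with Prox1 or Kif26b only (8.53 and 6.1).

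The rules for the groups set a threshold of 1 UMI, and the cells just inside and just outside differed as follows. Fibroblasts with exactly 2 of the 3 marker genes had Postn at 4.63 and Thbs1 at 1.82, while cells with 1 marker gene and no Egfl7, which were not counted as fibroblasts, had 4.08 and 1.51. Fn1 was at 0.405 just inside and 0.755 just outside. Endothelial cells with 1 Egfl7 UMI had Fn1 at 2.47 and Postn at 2.21, against 4.61 and 4.13 with 2 or more Egfl7 UMIs. Cells with neither Egfl7 nor a fibroblast gene had Fn1 at 1.45 and Postn at 1.27.

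Other genes of the same biology were counted from 3 lists, keeping those with at least 200 UMIs. The matrix lists genes of part of the genome, so genes absent from it have no level here, whatever their expression. The medians below cover the counted genes alone. Of 36 other matricellular genes and glycoproteins associated with them, 7 were in the matrix and 5 were counted. Tnr, for tenascin R, was at 0.148 UMIs per 10000 in fibroblasts and 0.00242 in endothelial cells. Hmcn1, for the matrix protein hemicentin 1, was at 2.22 in fibroblasts and 11.8 in endothelial cells, and Igfbp5, which binds insulin-like growth factors, at 1.42 and 12.2. Ecm1, for extracellular matrix protein 1, was at 0.380 and 1.82, and Sned1 at 1.67 and 2.02. In this list 1 gene was at least 2 times higher in fibroblasts (16.5% of all genes were) and 3 in endothelial cells (14.5% of all genes), with a median log2 ratio of -2.26, against 0.03 over all 2282 genes and 1.10 over the 5 members.

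Of 27 genes listed as receptors for these proteins or for other parts of the matrix, 10 were in the expression matrix and 8 were counted. Of these, 4 were at least 2 times higher in fibroblasts than in endothelial cells, against 16.5% of all genes, and 2 were at least 2 times higher in endothelial cells, against 14.5%, with a median log2 ratio of 0.63. Itga8, an integrin subunit that binds fibronectin, was at 2.46 in fibroblasts and 0.0749 in endothelial cells. Ddr2, a collagen receptor, was at 2.29 and 0.0723. Itga4, the integrin subunit through which leukocytes bind fibronectin, was at 5.45 in Ptprc cells, 0.0981 in fibroblasts and 0.0857 in endothelial cells. Cd44, a receptor for hyaluronan, was at 6.12 in Ptprc cells, 2.13 in fibroblasts and 1.01 in endothelial cells. Itgav, a subunit of receptors for periostin and fibronectin, was found in all 3 groups, at 1.32 in fibroblasts, 1.56 in endothelial cells and 2.46 in Ptprc cells. Itga6, a subunit best known for binding laminin, was at 1.64 in endothelial cells and 0.167 in fibroblasts. Itga10, a subunit of a collagen receptor, was at 0.879 in fibroblasts and 0.0861 in endothelial cells, and Sdc4, a heparan sulfate proteoglycan that binds fibronectin, at 0.175 and 0.405.

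Of 22 genes for proteases, cross-linking enzymes and partners in TGF-β signaling, 8 were in the matrix and 6 were counted. Of these, 1 was at least 2 times higher in fibroblasts, against 16.5% of all genes, and 3 in endothelial cells, against 14.5%, with a median log2 ratio of -1.44. Fap, a protease of activated fibroblasts, was at 2.83 in fibroblasts and 0.104 in endothelial cells. Tgm2, a transglutaminase that cross-links fibronectin, was at 0.715 in endothelial cells and 0.0746 in fibroblasts. Tgfb2, a TGF-β ligand, was at 2.06 in endothelial cells and 1.03 in fibroblasts, and with Prox1 or Kif26b only, where Postn and Fn1 were highest, it was at 0.771 against 3.80 with Tmem163 or Kcnh1 only. Notch1, for the receptor, was at 2.65 in endothelial cells and 0.594 in fibroblasts. Serpine2, a protease inhibitor, was at 0.265 in fibroblasts and 0.232 in endothelial cells, and Dpp4, a peptidase of the cell surface, at 0.671 in Ptprc cells, 0.0602 in endothelial cells and 0.0163 in fibroblasts. The scatter of fibroblast against endothelial levels places the 5 genes among all others.

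**Figure D5:**
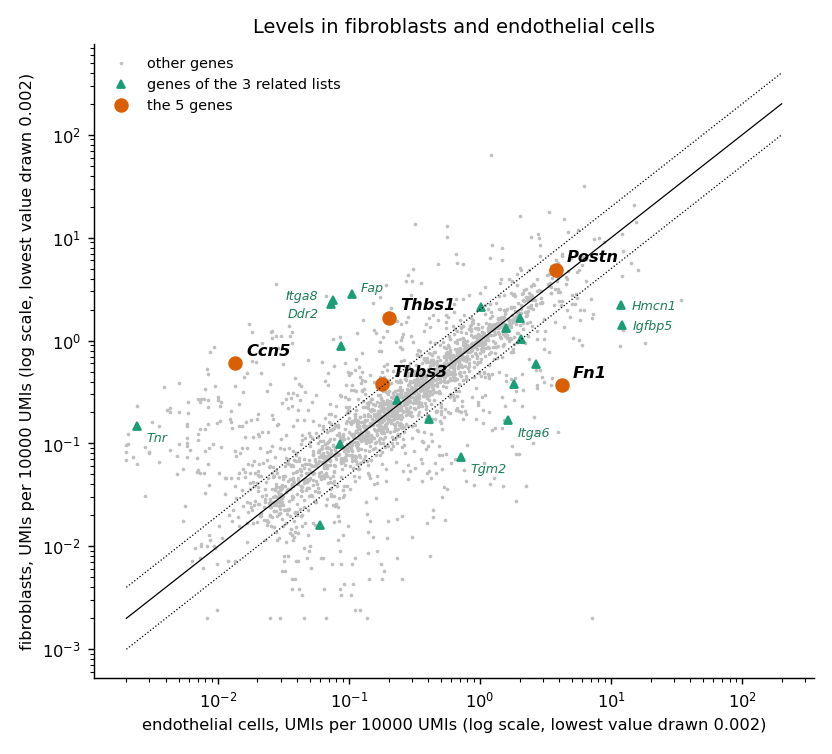
Level in fibroblasts (vertical) against endothelial cells (horizontal), both in UMIs per 10000 UMIs on log axes with lower levels drawn at 0.002, for 2282 genes (grey), the counted genes of the 3 related lists (green triangles) and the 5 genes (orange). The solid line marks equal levels and the dotted lines a ratio of 2: Ccn5, Thbs1 and Thbs3 lie above them, Fn1 below, and Postn between them at a ratio of 1.30.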

How the data were processed

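The 3 samples are single-cell libraries of mgR mitral valves per the labels. The authors deposited 1 pooled matrix of natural log values, ln(1 + UMIs per 10000 UMIs of the cell), made with Cell Ranger 7.1.0 on mm10 (submitters' processing notes), then Seurat filters and LogNormalize. Their Harmony step acts on principal components and leaves these values as they are. The deposited file is not a count table, so UMIs were recovered from it, whole within 0.02 in 100% of values above 0. The comparisons had been planned on counts, and with 1 pooled sample no count model was fitted. The last of 3265 listed genes had 11958 empty values and was left out. A median of 15.7% of the UMIs of a cell fell on listed genes, and 0 columns were unused.

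Members and lists were chosen with earlier results of these data known. All 5 members were named. For each, the 3 genes most alike were those with the highest Pearson correlation of log2(UMIs per 10000 + 0.01) over 12 groups, among genes with at least 500 UMIs. 1 of these genes is not reported here. List genes with at least 200 UMIs were counted, and named where they were among the 5 highest of their list in a group. The Ptprc cells with high Fn1 and their genes were chosen after their values were seen.

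Cells were thinned to 2000 UMIs (random seed 1), which left out 92 fibroblasts, 563 endothelial cells and 54 Ptprc cells. Intervals are 95% exact Poisson (levels), Clopper-Pearson (shares) and conditional binomial (ratios). No doublet caller was run. Coordinates are from GENCODE M21 (GRCm38), matched by symbol. The steps were tested on simulated data. The tools were Python 3.11.15 with scipy 1.17.1, numpy 2.4.6, matplotlib 3.10.9 and pandas 2.3.3. The alternatives were groups called after thinning, stricter markers, each barcode run by itself, a minimum of 2000 UMIs a cell, means of per-cell levels, and leaving out cells with Mlph, Rgs5 or Ptprc, or shared barcodes.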

Additional observations from a re-analysis of the deposited data

How the results depend on the processing

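No paired analysis was possible because the barcodes name no sample and no test was made. The mice, genotypes and libraries behind the cells are not known, so no interval covers them, and the second run rests on 274 fibroblasts and 122 Ptprc cells. Over 9 alternatives, 51 of 54 counts of members with their higher level in a group, whatever the ratio, stayed within 1.5 times. The count of members higher in fibroblasts with Scn7a than without was 1 (Ccn5) and became 2, through Thbs3, whose reported log2 ratio was -0.012, with all 3 fibroblast markers required, with cells of at least 2000 UMIs, and in the second run alone. Of 486 log2 ratios, 374 stayed within the 95% interval of the value reported and 104 left it. Another 8, whose interval had held no 0, changed sign, and 9 others had no value since a group had 0 UMIs. The alternatives differed in this: 26 of 55 ratios stayed with groups called after thinning, and 17 of 46 in the second run. All 55 stayed with cells of at least 2000 UMIs, and all 55 with shared barcodes left out. Postn with over without Prg4 became 0.020 after thinning, 0.055 with all 3 markers, 0.70 in the second run, and 0.024 without cells that had Mlph, Rgs5 or Ptprc. Fn1 in fibroblasts over Ptprc cells became 0.71 in the first run. In the second run, Fn1 with over without Prg4 became -1.16, and with Scn7a only over Prg4 only 0.68. Fn1 with Selp or Fmo2 only over Tmem163 or Kcnh1 only became -0.081 after thinning. Causes were not tested.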

Other observations

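The genes whose levels over 12 groups of cells were most like those of each member are given as a description. The 12 points share libraries and depth and are groups of cells rather than samples, and 1942 genes were searched. For Ccn5 these included Rgs7 (Pearson r = 0.985) and Aox3 (0.982). Rgs7, a regulator of G protein signaling, was at 2.20 UMIs per 10000 in fibroblasts with Scn7a only and 0.331 in those with Prg4 only. Aox3, an aldehyde oxidase, was at 2.17 and 0.269 in the same subsets.

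For Thbs3 the most alike genes were Hdlbp (r = 0.985), Fbn1 (0.981) and Sh3d19 (0.960). Fbn1 encodes fibrillin-1 and is the gene that carries the mgR allele. It was at 5.93 in fibroblasts with Scn7a only, 5.95 with Scn7a and Prg4, 4.78 with Prg4 only and 3.43 with neither, and at 1.77 to 2.26 in the endothelial groups. Ptprc cells with Mrc1 had Fbn1 at 0.300.

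For Thbs1 the most alike were Gm14223 (r = 0.956), Dnah14 (0.930) and Rnf152 (0.915). Dnah14, a dynein heavy chain gene, was at 0.406 with Prg4 only and 0.0508 with Scn7a only. For Fn1 they were Eef1b2 (0.966), Ppp1r16b (0.961) and Adss (0.951). Ppp1r16b, a phosphatase regulator of endothelium, was at 1.47 with Prox1 or Kif26b only and 0.0337 in fibroblasts with Prg4 only. Its highest level was 1.72, with Selp or Fmo2 only, which is not where Fn1 was highest. For Postn they were Mterf4 (0.904), Cdc73 (0.903) and Zfp451 (0.895). Mterf4 ranged only from 0.100 to 0.209 over the groups, and was highest in fibroblasts with Scn7a and Prg4, not where Postn was highest.

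Among the members, the profiles over the 12 groups were most alike for Postn and Thbs3 (r = 0.756) and most opposed for Fn1 and Ccn5 (r = -0.777). Within cell types Postn and Thbs3 differed: fibroblasts with neither Scn7a nor Prg4 had the highest Postn and the lowest Thbs3 of the fibroblast subsets. Over the single endothelial sets Postn varied widely, while Thbs3 stayed between 0.152 and 0.191. Postn and Fn1, which were found together in endothelial cells, had r = -0.167 over all 12 groups, where fibroblasts had Postn and little Fn1.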
